A study of Mus musculus with 2 samples.

Results

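The 40 genes described here encode the machinery that copies DNA and supplies it with nucleotides and chromatin: 2 licensing factors, the 6 subunits of the MCM helicase, 6 factors that activate it, 4 subunits of polymerase alpha-primase, the sliding clamp with 5 subunits of its loader, 3 proteins of polymerase delta and the lagging strand, 3 proteins of single-stranded DNA and the checkpoint, 5 enzymes of nucleotide supply and 5 chromatin proteins. They were chosen by name, and all 40 were found among the 32285 genes of the count tables. Endothelial and hematopoietic cells were sorted from mouse liver at postnatal day 15 and sequenced as single cells by a droplet method, in 1 c-Maf KO library and 1 control library. Each library pooled 1 male and 1 female mouse, so the spread between mice cannot be seen. The KO animals are described as c-Maf KO of the endothelium and the controls as WT; the sources used here name no strain, Cre driver or sorting marker. Levels are in CPM (UMIs, or unique molecules, of a gene per 1000000 UMIs of the cells). Maf, the deleted gene, stood at 162 CPM in KO endothelial cells and at 2070 CPM in control endothelial cells.

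Origins of replication are licensed in G1 when Cdc6 and Cdt1 load the ring-shaped MCM helicase onto DNA. Cdc45 and the GINS complex then turn it into a moving helicase, polymerase alpha-primase lays primers, and the clamp loader RFC places the clamp PCNA, which holds the replicative polymerases on DNA. Transcription factors of the E2F family switch on many of these genes as cells leave G1, so their RNA marks cells that prepare or carry out S phase. Liver endothelium grows by division in the weeks after birth, and the young liver also holds dividing blood precursors.

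Promoter sequences are shown for Hells and Uhrf1, which had the widest gaps between KO and control endothelium, for Mcm5, which had the widest among the MCM subunits, and for Slbp, the only member not above control. Letters of the E2F type are a feature that the choice of genes did not use. The windows run from 250 bases before to 50 bases after a transcription start, 5′ to 3′ on the gene's strand, from RefSeq annotation of GRCm38.p6. Capitals mark E2F-type letters.
Hells: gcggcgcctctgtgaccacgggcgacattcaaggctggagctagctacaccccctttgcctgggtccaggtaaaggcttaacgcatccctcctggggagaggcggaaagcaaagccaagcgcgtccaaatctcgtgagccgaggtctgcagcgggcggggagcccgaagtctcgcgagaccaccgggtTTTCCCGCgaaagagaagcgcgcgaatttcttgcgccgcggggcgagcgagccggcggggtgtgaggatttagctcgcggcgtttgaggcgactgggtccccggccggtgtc
Uhrf1: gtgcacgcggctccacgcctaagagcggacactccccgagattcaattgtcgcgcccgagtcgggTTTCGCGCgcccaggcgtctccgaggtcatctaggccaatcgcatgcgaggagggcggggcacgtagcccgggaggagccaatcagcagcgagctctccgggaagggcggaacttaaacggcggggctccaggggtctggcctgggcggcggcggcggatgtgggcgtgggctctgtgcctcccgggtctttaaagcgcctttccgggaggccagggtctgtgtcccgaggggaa
Mcm5: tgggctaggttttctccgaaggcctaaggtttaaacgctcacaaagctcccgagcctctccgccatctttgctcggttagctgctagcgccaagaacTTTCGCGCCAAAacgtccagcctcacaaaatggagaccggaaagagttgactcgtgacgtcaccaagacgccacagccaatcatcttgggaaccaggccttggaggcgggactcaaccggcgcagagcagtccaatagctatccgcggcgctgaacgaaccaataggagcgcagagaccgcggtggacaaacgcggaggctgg
Slbp: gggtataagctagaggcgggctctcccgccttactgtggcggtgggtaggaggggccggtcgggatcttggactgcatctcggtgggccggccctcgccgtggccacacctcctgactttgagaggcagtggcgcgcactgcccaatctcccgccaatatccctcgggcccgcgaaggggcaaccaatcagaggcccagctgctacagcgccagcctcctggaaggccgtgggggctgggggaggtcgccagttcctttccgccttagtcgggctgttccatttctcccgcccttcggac
These windows lie at chr19:38930740-38931039 (plus strand, Hells), chr17:56304063-56304362 (plus strand, a second annotated start of Uhrf1), chr8:75109259-75109558 (plus strand, Mcm5) and chr5:33652525-33652824 (minus strand, Slbp). The letters searched on either strand were TTTCCCGC, TTTCGCGC, TTTGCCGC and TTTGGCGC. In Mcm5 a pair of matches overlaps, at bases -153 and -149 from the start, and Hells and Uhrf1 held 1 match each, at -62 and -185. The Slbp window held none, nor did the other Uhrf1 window. A match was present in at least 1 window of 14 of the 34 members with a window (41.2%), against 15 of 59 other replication genes (25.4%) and 704 of all 27025 genes with a window (2.6%). CCAAT, a box common in promoters generally, stood in 21 of the 34 members (61.8%), against 41.1% of all genes. These are matches of letters and not measured binding.

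UMIs were summed over the cells of an annotated cluster or type. There is 1 library per group and hence no test: a gene counts as higher or lower where the level differed at least 1.5-fold and the sums held at least 50 UMIs together. Ranges in parentheses are 95% intervals that cover counting error only. Clusters carry the authors' names, whose short forms the deposited files leave unexplained: C-EC was read as cycling endothelial cells, S, S2 and KOS_1 to KOS_3 as sinusoidal cells, PV as large vessel cells and C1 as cycling hematopoietic cells. The reading is least clear for KOS_2 (518 KO and 21 control cells), which is counted in the endothelium but was mixed by its markers. Its endothelial markers summed to 4837 CPM in KO and 2995 CPM in control. Megakaryocyte markers summed to 915 and 12567 CPM there, and monocyte and macrophage markers to 319 and 8560 CPM. The 10 mitosis markers summed to 3591 CPM in KO C-EC and 4435 CPM in control C-EC, to 4121 and 4218 CPM in C1, and to 144 CPM in KOS_1. The 10 endothelial markers summed to 6436 CPM in KO C-EC and 7135 CPM in control C-EC, and to 208 and 201 CPM in C1. The 5 leukocyte markers summed to 63.6 and 80.0 CPM in C-EC, and to 1872 and 1946 CPM in C1. The endothelium comprised 2991 KO cells with a median of 7320 UMIs and 2948 control cells with a median of 4985.5 UMIs, and 21 cell barcodes occurred in both libraries.

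The first comparison asked whether the machinery as a whole differed between KO and control endothelium. The 40 genes together reached 1853 CPM (1835 to 1871) in KO endothelial cells, against 885.8 CPM (871 to 900.4) in control endothelial cells, a log2 ratio of 1.06 (1.04 to 1.09). By size 35 members were higher in KO, 5 were neither and 0 were lower. Of the 11927 genes with enough UMIs, 14.4% were higher and 15.9% lower. At a fold of 2, 29 members were higher, against 7.8% of all genes, and in cells thinned to an equal depth 31 of the 35 members with enough UMIs, against 11.4%. The median log2 ratio was 1.47 over the members and -0.08 over all these genes. Scaling without mitochondrial, ribosomal protein, hemoglobin and immunoglobulin genes, which made up 30.0% of KO and 21.5% of control endothelial UMIs, moved every gene up by 0.17. Then 36 members were higher and 0 lower, against 2303 higher and 1320 lower of the 11927 genes. Higher calls were 63.6% of all calls in place of 47.5%. In the authors' phase calls, 603 KO cells were called S with 4345 CPM and 142 control cells with 3957 CPM, while cells called G1 had 795 CPM in KO (2081 cells) and 707 CPM in control (2733 cells). Levels within a call thus lay closer than in the whole. The calls may rest on some of these genes, which would bring levels within a call together, so this is a description.

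The licensing factors showed the widest gap of all roles. Cdc6, which recruits the MCM ring to origins, stood at 14.5 CPM in KO and 2.83 CPM in control endothelium (log2 2.35, 1.91 to 2.84). Cdt1, its partner, stood at 22.7 CPM in KO and 5.60 CPM in control endothelium (log2 2.01). All 6 subunits of the MCM helicase were higher in KO, at 403 CPM in sum against 153 CPM in control. Among the subunits the log2 ratio ran between 0.92 for Mcm3, at 123 CPM in KO and 65.2 CPM in control, and 2.02 for Mcm5, at 66.4 CPM in KO and 16.4 CPM in control. Subunits that act in 1 ring therefore differed by unequal amounts, and the intervals of Mcm3 (0.81 to 1.02) and Mcm5 (1.83 to 2.21) did not meet.

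Of the helicase activators, Cdc45, Mcm10 and 3 of the 4 GINS subunits were higher in KO. Gins1 and Gins2 stood out with log2 ratios of 1.99 and 2.07. Gins4, another subunit of the same complex, was at 29.6 CPM in KO and 24.3 CPM in control endothelium (log2 0.28). Polymerase alpha-primase repeated this pattern within a complex. Its catalytic subunit Pola1 (log2 1.30) and both primase subunits Prim1 (1.78) and Prim2 (1.30) were higher, while the regulatory subunit Pola2 was at 62.0 CPM in KO and 57.6 CPM in control endothelium (log2 0.11, -0.01 to 0.23).

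The clamp Pcna was at 124 CPM in KO and 71.2 CPM in control endothelium (log2 0.79). Among the subunits of its loader, Rfc4 (log2 1.49), Rfc5 (1.34) and Rfc2 (0.68) were higher in KO. Rfc1, the large subunit, was neither, at 100.1 CPM in KO and 80.6 CPM in control, and Rfc3 was neither, at 43.7 CPM in KO and 31.2 CPM in control. Lig1, the ligase that joins Okazaki fragments, had 92.0 CPM in KO and 25.7 CPM in control endothelium (log2 1.84). Fen1, the flap nuclease, and Pold1, the catalytic subunit of polymerase delta, had log2 ratios of 1.31 and 1.44. Clspn, a checkpoint mediator at the fork, had 38.6 CPM in KO and 10.2 CPM in control (log2 1.91), a wider gap than for the single-strand binding subunits Rpa1 (0.68) and Rpa2 (1.14).

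All 5 enzymes of nucleotide supply were higher in KO. Rrm2, the cell-cycle regulated subunit of ribonucleotide reductase, was at 39.5 CPM in KO and 9.30 CPM in control endothelium (log2 2.08), and its partner subunit Rrm1 at 60.4 CPM in KO and 30.4 CPM in control (log2 0.99). Tk1, the thymidine salvage kinase, and Tyms, which makes thymidylate anew, had log2 ratios of 1.96 and 1.81. Dut, which removes dUTP, had the lowest ratio of these enzymes, at 0.80.

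The widest and the narrowest gaps both lay among the chromatin proteins. Hells, a remodeller needed for DNA methylation, was at 58.1 CPM in KO and 9.18 CPM in control endothelium (log2 2.66, 2.42 to 2.92). Uhrf1, which brings the maintenance methyltransferase to newly copied DNA, was at 39.9 CPM in KO and 6.59 CPM in control endothelium (log2 2.59, 2.31 to 2.90). Chaf1a and Chaf1b, subunits of the histone chaperone CAF-1, had log2 ratios of 1.93 and 1.71. Slbp, which binds the stem-loop of histone messages, was at 94.6 CPM in KO and 100.6 CPM in control endothelium (log2 -0.09, -0.18 to 0.01; 0.08 under the other scaling). Of the members with a window, 13 of 30 called higher and 1 of 4 called neither held E2F-type letters.

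**Figure D1:**
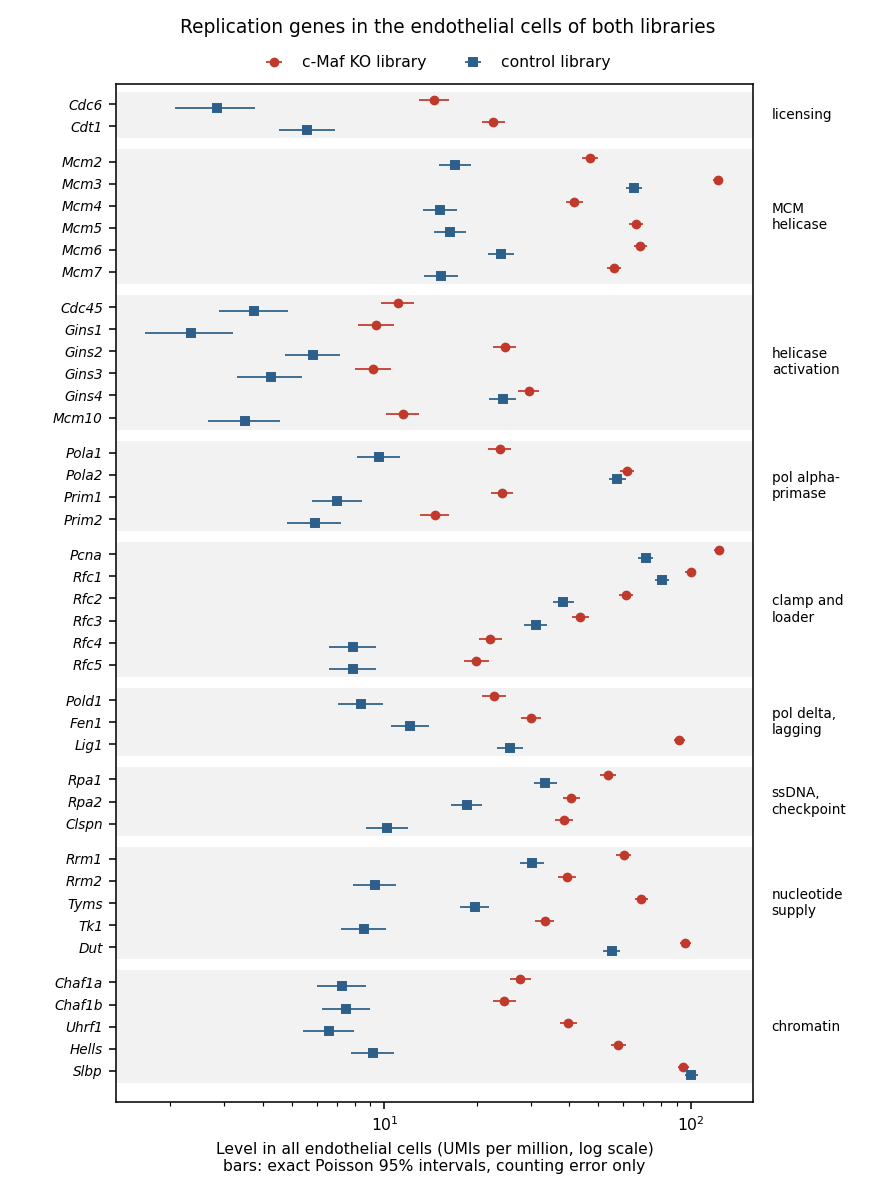
Level of each of the 40 genes in all endothelial cells (CPM, log axis), with KO cells as circles and control cells as squares and bars giving exact Poisson 95% intervals. The KO circle lies to the right of the control square for 39 genes, and for Slbp the order is turned round.

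The difference was also sought outside the cycling cluster. C-EC held 34.9% of the endothelial replication UMIs and 15.5% of all endothelial UMIs in KO, and 19.2% and 3.93% in control. Single members differed widely in this share. C-EC held 73.9% of the Tk1 UMIs in KO endothelium and 80.6% in control endothelium, and 74.3% and 79.5% of the Rrm2 UMIs. It held 16.8% and 4.39% of the Pola2 UMIs, 19.7% and 7.79% of the Rfc1 UMIs and 30.5% and 8.57% of the Slbp UMIs. Tk1 and Rrm2 were thus found mostly in C-EC, whereas Pola2, Rfc1 and Slbp were found mostly outside it.

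Without C-EC the 40 genes reached 1428 CPM in KO and 745 CPM in control endothelium (log2 0.94, 0.91 to 0.97). By size 32 members were higher and 0 lower, against 13.5% and 15.1% of 11732 genes. Cdc6 stood at 10.1 CPM in KO and 0.90 CPM in control (log2 3.45, 2.71 to 4.39), Uhrf1 at 28.1 CPM in KO and 3.14 CPM in control (log2 3.15), and Hells at 47.5 CPM in KO and 6.03 CPM in control (log2 2.97). For these genes the gap outside C-EC was wider than in the whole endothelium. Slbp was lower in KO by less than the size rule asks, at 77.8 CPM against 95.7 CPM in control (log2 -0.30, -0.40 to -0.19).

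Most of this came from KOS_1, a cluster of 1356 KO cells and 1 control cell that held 53.3% of the KO endothelial replication UMIs and 62.1% of all KO endothelial UMIs. Maf stood at 9.32 CPM in KOS_1, at 1732 CPM in the S and S2 cells of the KO library and at 2158 CPM in those of the control library, so the S and S2 cells of the library labelled c-Maf KO still carried Maf RNA near the control level. KOS_1 reached 1588 CPM (1567 to 1609), against 745 CPM (731 to 759) in the control S and S2 cells (log2 1.09), with 34 members higher and 0 lower against 14.5% and 17.7% of 11296 genes. The members short of the fold were Gins4, Pola2, Rfc1, Rfc3, Rpa1 and Slbp. Within the KO library, cells nearly without Maf RNA were then set against cells that retain it. The clusters were made from these genes, among others, so their differences are described and not tested. They also differed in depth, with medians of 10305 UMIs in KOS_1 and 5466 UMIs in S and S2. Erythroid markers summed to 61.5 CPM in KOS_1 and 503 CPM in S and S2 of this library. KOS_1 stood at 1588 CPM and S and S2 at 838 CPM (log2 0.92), with 32 members higher and 0 lower, against 13.2% and 14.9% of 10502 genes. Mcm7 was at 49.1 CPM in KOS_1 and 10.4 CPM in S and S2, and Uhrf1 at 33.6 CPM and 5.22 CPM. Tk1 was at 12.6 CPM in KOS_1 and 1.04 CPM in S and S2 of the KO library (177 and 2 UMIs). Mcm10 was at 8.96 and 0.52 CPM (126 and 1 UMIs) and Cdc45 at 6.90 and 1.04 CPM (97 and 2 UMIs). All UMIs came to 14059095 in KOS_1 but 1914997 in the 336 cells of S and S2, so low counts there are uncertain. Under the other scaling every gene moved up by 0.18 against control and by 0.15 within the KO library, and higher calls were 63.4% in place of 45.1%, and 63.9% in place of 46.9%, of all calls.

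S and S2, the sinusoidal clusters that both libraries share and that carry Maf RNA in both, were close in sum. They had 838 CPM (798 to 880.2) in the KO library and 745 CPM (731 to 759) in the control library (log2 0.17, 0.09 to 0.25). Of the 34 members with at least 50 UMIs, 10 were higher and 0 lower, against 5.63% and 6.31% of 10419 genes. The 10 were Cdt1, Mcm5, Mcm6, Gins2, Gins3, Prim1, Chaf1a, Chaf1b, Uhrf1 and Hells. Their KO sums were small, between 10 and 67 UMIs. The intervals of Cdt1, Chaf1b and Uhrf1 included 0, as for Uhrf1 with 10 UMIs in KO and 48 UMIs in control (log2 0.77, -0.43 to 1.72). Those of the others lay above 0, among them Hells (log2 1.31, 0.63 to 1.92) and Mcm6 (log2 0.77, 0.36 to 1.15). Slbp and Pola2 lay on the other side by less than the fold, at log2 -0.38 and -0.38. Erythroid markers in S and S2 summed to 503 CPM in KO and 158 CPM in control. Of the 6 with enough UMIs, 4 were higher and 1 lower. Large vessel cells of PV had 778 CPM in KO and 760.1 CPM in control (log2 0.03, -0.15 to 0.22), and 9 members reached 50 UMIs. Of these, Mcm3 and Mcm6 were higher and Pcna was lower, against 9.9% and 8.04% of 5063 genes. For comparison, the B cell cluster B3, in which 94.8% of KO and 93.9% of control cells were called G1 by the authors, had 794 CPM in KO and 756 CPM in control. S, S2 and PV thus stood near the level of a cluster with few cells called S or G2M.

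**Figure D2:**
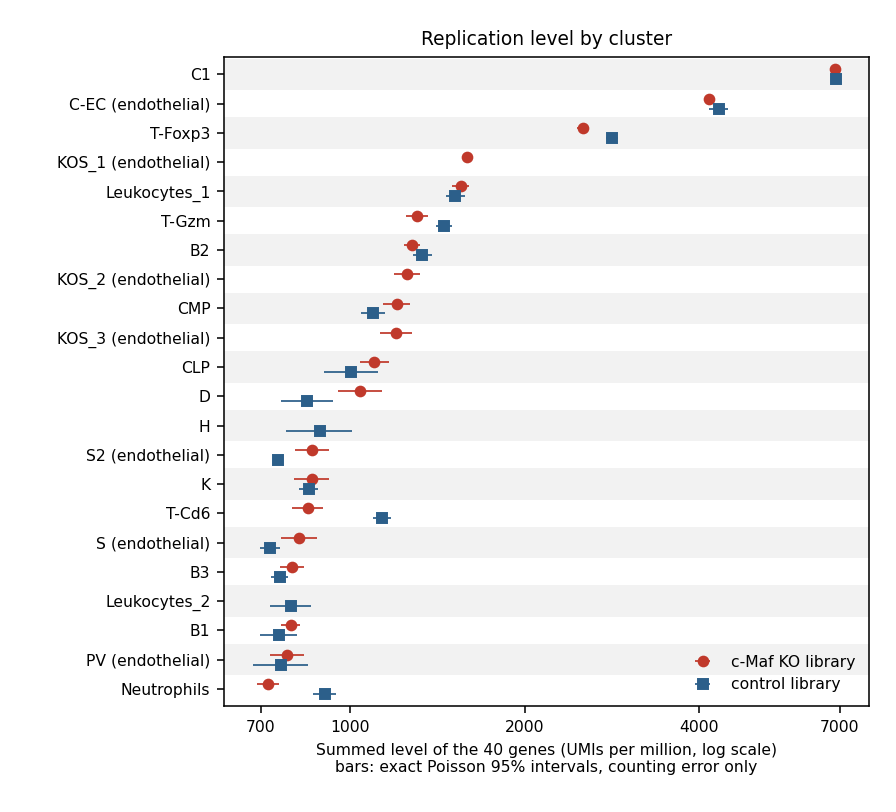
Summed level of the 40 genes in each cluster with at least 50 cells (CPM, log axis), with the KO library as circles above the control library as squares and exact Poisson 95% intervals. C1, C-EC and T-Foxp3 lie highest in both libraries, KOS_1 follows in KO, and S, S2 and PV lie in the lower part.

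Across clusters of at least 50 cells the order began with C1, C-EC and T-Foxp3 in both libraries, 20 clusters in KO and 19 in control. T-Foxp3 stood at 2523 CPM in KO and 2826 CPM in control. In KO it was followed by KOS_1 and by Leukocytes_1 at 1552 CPM (1501 to 1605), whose interval met that of KOS_1. KOS_2 and KOS_3, at 1254 CPM (1192 to 1319) and 1202 CPM (1127 to 1280), had intervals that met each other. Neutrophils were lowest in KO at 722 CPM and S in control at 728 CPM.

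The authors' phase calls were used to look inside KOS_1. The sources used here do not give the gene list behind these calls, and 21 of the 40 members belong to the S phase list usually used with Seurat, so levels across calls are descriptions. KOS_1 had 1047 cells called G1, 308 called S and 1 called G2M, and its S cells carried 13565 of its 22330 replication UMIs. In cells called G1 the 40 genes had 821 CPM (804 to 839) in KOS_1 and 710.5 CPM (697 to 724) in control S and S2 (log2 0.21, 0.17 to 0.25). Of 36 members with enough UMIs, 15 were higher and 1 lower, against 12.1% and 17.1% of 11065 genes. Under the other scaling every gene moved up by 0.18. Then 20 members were higher and 0 lower, against 2016 higher and 1251 lower of the 11065 genes. Higher calls were 61.7% in place of 41.5% of all calls.

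Among G1 cells Uhrf1 was at 6.01 CPM in KOS_1 and 1.96 CPM in control (log2 1.61, 0.96 to 2.30), Hells at 11.6 CPM and 4.52 CPM (log2 1.36), Cdt1 at 6.58 CPM and 2.56 CPM (log2 1.35), and Mcm5 at 20.9 CPM and 8.44 CPM (log2 1.31). The widest gaps thus lay among chromatin, licensing and helicase genes. The lower member was Slbp, at 61.0 CPM in KOS_1 and 93.5 CPM in control (log2 -0.62, -0.75 to -0.48), a call that ended under the other scaling (-0.43). Tk1 and Rrm2, with 16 and 29 UMIs in KOS_1 and 17 and 27 UMIs in control, were near the limit of detection in G1 cells of both.

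The cells called S in KOS_1 differed from those in C-EC of the same library. The 40 genes had 3981 CPM (3915 to 4049) in the 308 KOS_1 cells, against 6698 CPM (6519 to 6881) in the 107 C-EC cells (log2 -0.75, -0.80 to -0.70). By size 24 members were lower and 0 higher, against 7.27% and 8.09% of 7962 genes. The clusters were made from these genes, among others, and the calls may rest on them too. A lower level outside the cycling cluster is thus partly built in, and the difference is described and not tested. The MCM subunits came close to each other, at 1094 CPM in sum in KOS_1 and 1300.5 CPM in C-EC (log2 -0.25), with Mcm7 alone past the fold. Mcm3 stood at 305 CPM in KOS_1 and 329 CPM in C-EC, Mcm4 at 128 and 134 CPM, and Hells at 195 and 249 CPM. Nucleotide supply was far apart, at 478 CPM in KOS_1 and 1331 CPM in C-EC (log2 -1.48, -1.59 to -1.36). Rrm2 was at 53.1 CPM in KOS_1 and 245 CPM in C-EC (log2 -2.20), Tk1 at 47.0 and 199 CPM (log2 -2.08), Tyms at 125 and 330 CPM (log2 -1.40) and Clspn at 76.3 and 218 CPM (log2 -1.52). The 10 mitosis markers summed to 357 CPM in KOS_1 and 2090 CPM in C-EC in these cells. The S cells of KOS_1 thus carried MCM RNA near the C-EC level with much less RNA of Rrm2 and Tk1.

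**Figure D3:**
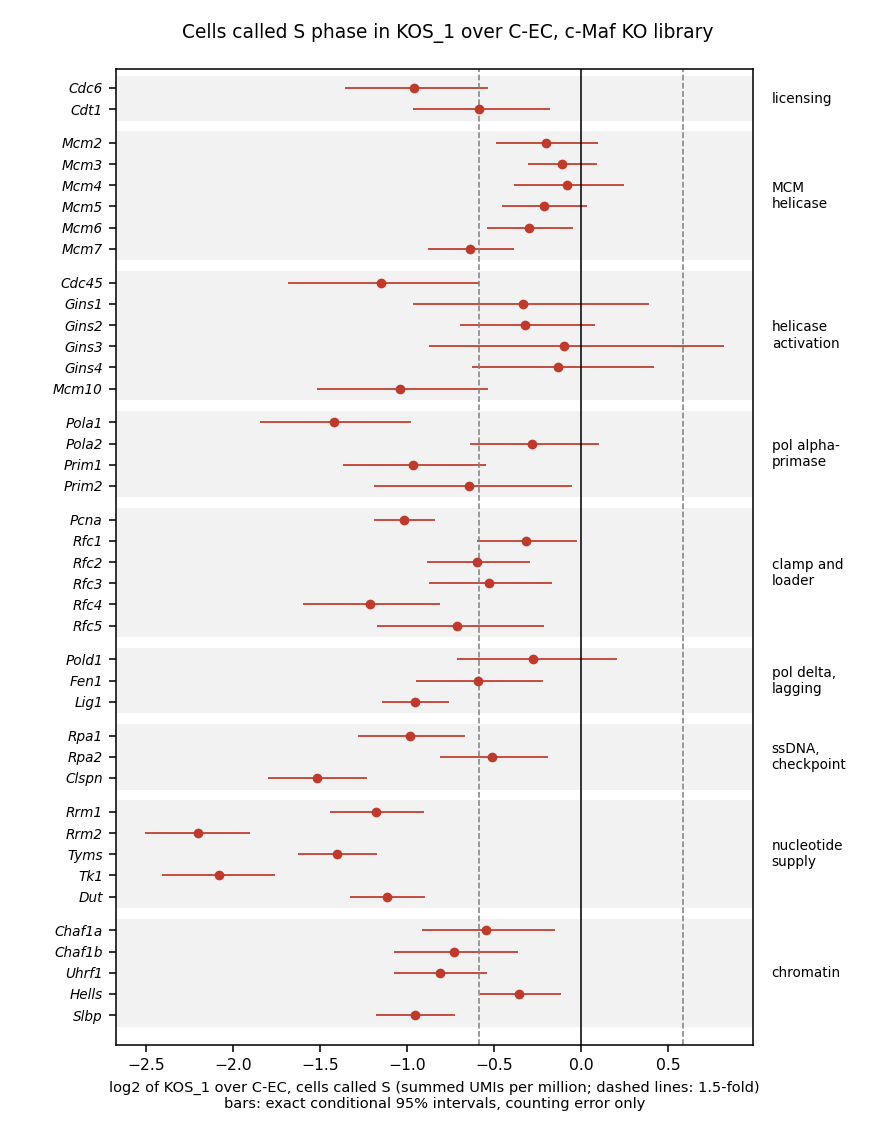
log2 ratio of each gene between cells called S in KOS_1 and in C-EC of the KO library, with exact conditional 95% intervals and dashed lines at 1.5-fold. All 40 points lie below 0, Rrm2 and Tk1 lie farthest from it, and 5 of the 6 MCM subunits lie within 1.5-fold.

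Within KO C-EC itself, the 40 genes had 6698 CPM in cells called S and 3633 CPM in the 284 cells called G2M (log2 0.88), with 29 members higher and 0 lower, against 6.01% and 8.34% of 7317 genes. Cdc6 was at 92.6 CPM in S and 25.0 CPM in G2M, Chaf1b at 118 and 31.7 CPM and Hells at 249 and 82.4 CPM. Rrm2, at 245 and 185 CPM, and Tk1, at 199 and 157 CPM, were among the members that kept more of their level in G2M.

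Cells that both libraries place in C-EC carried similar levels. The 40 genes had 4166 CPM (4099 to 4234) in KO and 4327 CPM (4167 to 4492) in control (log2 -0.05, -0.11 to 0.00; 0.11 under the other scaling). Of the members 1 was higher, 1 lower and 38 neither, against 8.72% and 19.4% of 7961 genes, shares that became even under the other scaling, with higher calls at 51.1% in place of 31.0% of all calls. Gins1 was at 22.8 CPM in KO and 14.1 CPM in control, from 80 and 9 UMIs (log2 0.62, -0.30 to 1.87). Cdc45 was at 39.1 CPM in KO and 69.0 CPM in control (log2 -0.83, -1.32 to -0.30). C1 had 6879 CPM (6814 to 6944) in KO and 6908 CPM (6816 to 7002) in control (log2 -0.01, -0.03 to 0.02), and none of the 40 members passed the fold, against 2.26% higher and 2.84% lower of 8811 genes. The levels in C1, cells of the same 2 libraries, were nearest to equal.

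The endothelial and hematopoietic cycling cells were then set against each other within each library. C1 was chiefly of the B lineage: B lineage markers led in 90.3% of its KO cells and 86.4% of its control cells, and these had 7146 and 7221 CPM. The 40 genes had 4166 CPM in C-EC and 6879 CPM in C1 of the KO library (log2 -0.72, -0.75 to -0.70), and 4327 CPM in C-EC and 6908 CPM in C1 of the control library (log2 -0.67, -0.73 to -0.62). In the KO library 1 member was higher in C-EC and 22 lower, against 33.1% and 21.4% of 9784 genes. In the control library 1 was higher and 17 lower, against 34.3% and 24.9% of 7289 genes. In both libraries 14 members were lower and 1 higher, against 17.2% and 24.3% of 7280 genes. These 15 of 40, against 41.5% of all genes, became 7 at a fold of 2, against 26.6%, and 9 of the 18 with enough UMIs in thinned cells, against 36.7%. The clusters were made from these genes, among others, so their differences are described and not tested. UMIs of both endothelial and leukocyte markers, at least 2 of each, occurred in 20 KO and 7 control cells of C-EC and in 227 KO and 112 control cells of C1; without them the log2 ratio was -0.79 in KO and -0.80 in control.

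Among the 14 lower in both were 3 MCM subunits (Mcm2, Mcm6 and Mcm7), the clamp and 4 of the 5 loader subunits, and Pold1. Mcm7 was at 128 CPM in C-EC and 327 CPM in C1 of KO, and at 136 and 344 CPM in control. Rfc4 was at 60.7 and 155 CPM in KO and at 58.0 and 153 CPM in control. The large loader subunit Rfc1 was neither in both, at 127 and 144 CPM in KO and 160.0 and 121 CPM in control. The chromatin proteins Uhrf1, Hells and Slbp were lower in both. Uhrf1 had 104 CPM in C-EC and 302 CPM in C1 of KO, and 91.0 and 299 CPM in control (log2 -1.53 and -1.71). Polymerase alpha-primase had no member lower in both, and Pola2 had 67.3 CPM in C-EC and 57.3 CPM in C1 of KO, and 64.3 and 51.6 CPM in control.

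Nucleotide supply split. Dut had the widest gap of all members, with 213 CPM in C-EC and 655 CPM in C1 of KO, and 158 and 657 CPM in control (log2 -1.62 and -2.05). Rrm2 had 189 CPM in C-EC and 458 CPM in C1 of KO, and 188 and 501 CPM in control (log2 -1.27 and -1.41). Its partner Rrm1 was neither, at 187 and 247 CPM in KO and 226 and 249 CPM in control. The thymidylate enzymes ran the other way. Tk1 was higher in C-EC, at 159 CPM against 101 CPM in C1 of KO and 176 CPM against 109 CPM in control (log2 0.65 and 0.69), and the control call ended under the other scaling, which moved genes down by 0.19 there. Tyms was above C1 by less than the fold, at 216 and 169 CPM in KO and 204 and 176 CPM in control.

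**Figure D4:**
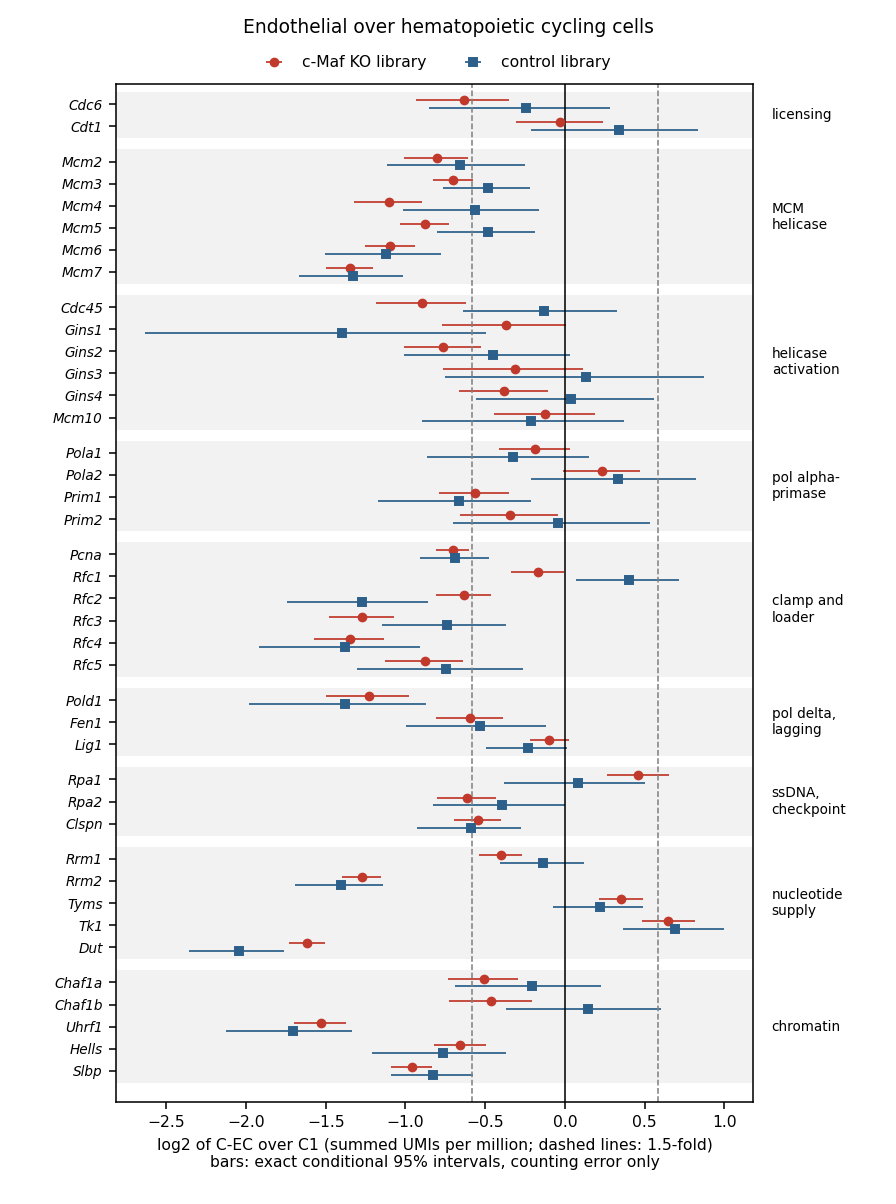
log2 ratio of C-EC over C1 for each gene, with the KO library as circles and the control library as squares, exact conditional 95% intervals and dashed lines at 1.5-fold. Dut, Uhrf1, Rfc4, Mcm7 and Rrm2 lie far to the left in both libraries, and Tk1 alone lies to the right of 1.5-fold in both.

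The gap was present within phase calls and was narrower in the S cells of the KO library. In cells called S the 40 genes had 6698 CPM in C-EC and 9189 CPM in C1 of KO (log2 -0.46), and 6141 and 9354 CPM in control (log2 -0.61). By size 4 members were higher and 12 lower in KO, against 29.7% and 23.2% of 6535 genes. In control 1 of the 39 with enough UMIs was higher and 14 were lower, against 25.8% and 34.3% of 3689 genes. The share lower in control was thus near that of all genes. The median log2 ratio there was -0.46 over the members and -0.17 over all these genes. Dut was at 336 CPM in C-EC and 891 CPM in C1 of KO, and at 219.5 and 836 CPM in control. Cdt1 was higher in C-EC in both, at 95.2 and 58.5 CPM in KO and 122 and 60.9 CPM in control. Tk1 had 199 CPM in C-EC and 122 CPM in C1 of KO, but 132 and 156 CPM in control. In cells called G2M the sums were 3633 CPM in C-EC and 5588 CPM in C1 of KO (log2 -0.62), and 3468 and 5646 CPM in control (log2 -0.70). By size 1 member was higher and 14 lower in KO, against 32.5% and 21.2% of 8934 genes, and 1 higher and 18 lower in control, against 31.6% and 25.6% of 5952 genes. Tk1 was the higher one in both, at 157 and 90.1 CPM in KO and 196 and 85.1 CPM in control.

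C1 alone among the hematopoietic clusters read by phase had S cells above those of C-EC. In the 6 others, S cells had between 2229 CPM (B3) and 6437 CPM (Leukocytes_1) in KO and between 1916 CPM (B3) and 5961 CPM (Leukocytes_1) in control, below C-EC, although the intervals of Leukocytes_1 met those of C-EC. Cells called S of T-Foxp3, 62 in KO and 54 in control, had 5479 CPM and 5878 CPM, so that C-EC cells called S stood above them by log2 0.29 in KO (0.23 to 0.35) and 0.06 in control (-0.03 to 0.16). Within C1, the 18 KO and 12 control cells led by granulocyte markers had 3307 CPM (3106 to 3518) and 3933 CPM (3689 to 4189). Both lay below all C-EC cells, although in control the interval met that of C-EC. The clusters were made from these genes, among others, and the calls may rest on them too. Lower levels in S cells outside a cycling cluster are thus partly built in, and they are described and not tested. Some clusters also held few S cells, with 10 in KO and 1 in control for Neutrophils. The level below C1 refers to a mostly B lineage cluster.

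Shares of cells were compared at a fixed depth. After each cell was thinned to 1128 UMIs, with 231 KO and 363 control cells of the endothelium left out as shallower, at least 3 replication UMIs were found in 25.9% of 2760 KO and 8.32% of 2585 control endothelial cells. The shares were 64.7% in KO and 69.3% in control for C-EC, 76.6% and 78.7% for C1, and 23.6% for KOS_1. B3 gave 6.68% in KO and 4.93% in control. S gave 10.1% and 7.21%, S2 8.85% and 5.62% and PV 5.93% and 3.57%. KOS_1 thus lay far above B3, whereas S2 and PV lay near it. Unthinned, the endothelial shares were 74.8% in KO and 57.3% in control and those of B3 54.1% and 64.7%.

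The pathway beyond the 40 genes was read from 73 other replication genes in 6 lists. In the whole endothelium 47 of them were higher in KO and 0 lower, with a median log2 ratio of 0.93, against 14.4% and 15.9% of all genes. The largest ratios included Orc1 of the origin recognition complex, at 4.38 CPM in KO and 0.62 CPM in control (log2 2.77), the firing factor Ticrr (2.58) and the nuclease Exo1 (2.55). Orc3, Orc4 and Orc5, at -0.08, -0.17 and -0.20, and Pold3 and Pold4, at -0.03 and -0.12, were neither. Some subunits of these complexes thus stayed short of the fold, as Pola2, Rfc1 and Gins4 did among the members. Between C-EC and C1, 4 of the 72 with enough UMIs were higher and 27 lower in KO, against 33.1% and 21.4% of all genes, and 4 of 66 higher and 26 lower in control, against 34.3% and 24.9%. Pold4, at 48.2 CPM in C-EC and 205 CPM in C1 (log2 -2.08), and the deoxycytidine kinase Dck, at 37.3 and 153 CPM (log2 -2.03), were far lower in the KO library. All 10 mitosis markers were higher in KO endothelium, among them Top2a at 154 CPM in KO and 44.3 CPM in control. In a list of 16 genes of E2F factors, pocket proteins and related regulators, 6 were higher and 0 lower. Among the 6 were the Myb family gene Mybl2 (2.66) and E2f8 (1.77).

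Other markers moved with the endothelial difference. The 8 B lineage markers summed to 100.1 CPM in KO and 47.2 CPM in control endothelium, with 6 of the 7 that had enough UMIs higher in KO. In KOS_1 they summed to 74.1 CPM, against 5559 CPM in C1, where the 40 genes had 6879 CPM, while KOS_1 had 1588 CPM of the 40 genes. Of the marker lists of other cells, monocyte and macrophage markers summed to 45.2 CPM in KO and 140.5 CPM in control (4 of 6 lower), hepatocyte markers to 57.0 and 164.8 CPM (6 of 7 lower), stellate and mesenchymal markers to 20.3 and 47.2 CPM (3 of 4 lower), erythroid markers to 99.4 and 153 CPM (4 of 6 lower) and T and NK markers to 8.93 and 16.0 CPM (4 of 4 lower). Granulocyte markers had 121 and 103 CPM (2 of 7 lower), and no leukocyte or megakaryocyte marker passed the fold. The 6 sinusoidal markers were all lower in KO, at 2150 CPM in sum against 9852 CPM in control endothelium. Female-type cells, taken as those with Xist but without any UMI from 4 genes of the Y chromosome, gave 1898 CPM in KO and 989 CPM in control endothelium (log2 0.94, 1692 and 772 cells), and male-type cells, the reverse, gave 1586 and 809 CPM (log2 0.97, 328 and 846 cells). The part of cell makeup in the difference was not tested.

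The exons of 12 of the 40 members share bases with another gene, nearly always on the opposite strand: Mcm7, Cdc45, Gins2, Rfc2, Rfc4, Rfc5, Fen1, Lig1, Rpa1, Tk1, Chaf1a and Slbp. The sources used here do not say whether counting used strand, so the levels of these genes are uncertain to that extent.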

How the data were processed

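The authors deposited raw UMI counts, 1 table of genes by cells for each library, and a table of cells with cluster name, phase call and genotype. Cell Ranger 4.0.0, Seurat 3.2.3, FastQC 0.11.3 and mm10 are named in the submitters' processing notes. The sources used here do not give alignment or counting parameters, or which kit and strand setting applied. Libraries held 60281713 UMIs in 9058 KO barcodes and 54143192 UMIs in 9038 control barcodes, of which 8166 and 7669 cells are annotated.

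Counts were summed per library, cluster and phase call with Python 3.11.15, numpy 2.4.6, scipy 1.17.1 and pandas 2.3.3, and divided by the total UMIs of the cells. Log2 ratios used sums with 0.5 UMI added. The 95% intervals are exact: Poisson for levels, Clopper-Pearson for shares, and for ratios binomial given the total of both sums. PCR copies are removed by UMIs, and the intervals cover counting error only. Clusters D and H entered no type. No doublet caller was run; leaving out cells with at least 2 endothelial and 2 leukocyte marker UMIs is an alternative. All members were described; of other lists up to 3 genes with the highest and 3 with the lowest ratio could be named, and a few of these are. The members and lists were chosen with earlier results of these data known. Alternatives are given at the end, and those on phase calls, T-Foxp3, S and S2, and barcodes over 5000 genes were chosen after seeing the data. Figures were drawn with matplotlib 3.10.9.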

Additional observations from a re-analysis of the deposited data

Results flagged for a closer look

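Barcodes that the annotation leaves out also carried the 40 genes. KO barcodes over 5000 genes with more endothelial than leukocyte marker UMIs, 178 in number, had 2871.1 CPM (2823 to 2920.3), against 1423.8 CPM (1389 to 1459) in 162 such control barcodes. Those without more endothelial marker UMIs had 4861.9 CPM in 72 KO barcodes and 4477.5 CPM in 84 control barcodes. Barcodes with at least 20% mitochondrial UMIs had 1499.7 CPM in 640 KO barcodes and 811.8 CPM in 1121 control barcodes. In each kind the KO barcodes stood above the control barcodes. Each was set apart because it lies in data that no comparison above uses and exceeds the control level. Whether barcodes over 5000 genes hold 1 cell or several was not tested.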

How the results depend on the processing

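Of 60 values under alternatives, 21 stayed within the counting error of the value given (for counts of members, within 1.5 times), 37 moved beyond it and 2, both against T-Foxp3, reversed a ratio whose interval left out 0. These 2 put another cluster in place of C1 and use S calls only, so they are a different contrast. The ratios in C-EC and C1, whose intervals include 0, took either sign. The endothelial log2 ratio of KO over control (1.06) was 1.23 under the other scaling, 1.01 as a mean over cells, 1.47 as the median of members, 0.94 for female-type and 0.97 for male-type cells, 0.92 without the 21 Seurat list members, 0.94 without C-EC, 0.85 at the control's mix of cell types, 0.17 in S and S2 alone and 1.02 with the barcodes over 5000 genes. The ratio in C-EC (-0.05) was 0.11 under the other scaling, -0.14 thinned, -0.13 as the median, 0.092 for female-type and -0.51 for male-type cells (43 KO and 10 control cells). In C1 (-0.01) it was -0.042 thinned, -0.057 as a mean over cells, -0.067 without cells of both marker kinds (227 KO and 112 control cells left out), -0.093 for female-type and 0.41 for male-type cells (160 KO and 22 control cells). C-EC over C1 in the KO library (-0.72) was -0.76 under the other scaling, -0.66 as a mean over cells, -0.62 as the median, -0.79 without cells of both marker kinds, -0.61 for female-type and -1.04 for male-type cells, -0.69 without the Seurat list members, -0.46 in S and -0.62 in G2M calls, and it was reversed at 0.29 against T-Foxp3 in S calls. In the control library (-0.67) it was -0.86 under the other scaling, -0.48 as the median, -0.80 without cells of both marker kinds, -0.79 for female-type and -0.12 for male-type cells, and -0.61 in S calls. Against T-Foxp3 in S calls it was 0.064, a change of sign with an interval that includes 0. The count of 15 members called in both libraries between C-EC and C1 (41.5% of all genes) was 7 at a fold of 2 (26.6% of all genes) and 9 of the 18 with enough UMIs in thinned cells (36.7%). The 35 called in the endothelium were 29 at a fold of 2 (7.8% of all genes) and 31 of 35 in thinned cells (11.4%). The cause was not tested. No paired analysis was possible because each group has 1 library. Depth limits single genes most in PV, with 869 replication UMIs in KO and 330 in control and 9 members at 50 UMIs or more.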
